A study of Mus musculus with 2 samples.

Results

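Ccl17 and Ccl22, the genes of the chemokine ligands CCL17 and CCL22, and Ccr4, the gene of their shared receptor, were followed through leukocytes of mouse liver tumours. The members were chosen by name and are 3 of the 32285 genes listed for both libraries. Single-cell RNA was measured in CD45+ cells sorted live from dissociated hepatocellular carcinomas of MYC-ON mice, which had received either STK or DMSO by gavage. Each treatment is represented by 1 library of liver tumour cells, and both libraries have the same batch label. The series concerns SOAT1, a cholesterol-esterifying enzyme, and regulatory T cell function. The labels do not say what STK is, what drives the MYC transgene, how many mice entered each library, or their age, sex or strain. Both groups carry MYC-ON, so no comparison with tumour-free liver was made, and DMSO cells are the only controls. Because each group is a single library, no ratio below was checked against replicates and none was tested, and every interval is a 95% interval of counting error only.

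CCL17 and CCL22 are small secreted proteins that draw in cells carrying CCR4, a G protein-coupled receptor. Dendritic cells are a main source of both, above all conventional type 2 cells (cDC2) and the mature, migrating dendritic cells that gather in tumours and in the lymph nodes that drain them. CCR4 is best known on regulatory T cells (Treg), the Foxp3-bearing suppressive CD4 lineage, on type 2 helper T cells and on skin-homing memory cells. In tumours this axis is studied as a route by which Treg are recruited by dendritic cells or by tumour cells.

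The 2 ligand genes are neighbours on mouse chromosome 8 (GRCm38, GENCODE vM21). Ccl22 (ENSMUSG00000031779) lies at 94745590 to 94751699 on the plus strand and Ccl17 (ENSMUSG00000031780) at 94810453 to 94812036 on the same strand, each with 3 exons. The gap of 58753 bases between them holds 1 other protein-coding gene, Cx3cl1, which encodes the chemokine fractalkine. Ccr4 (ENSMUSG00000047898) lies on chromosome 9 at 114490316 to 114504916 on the minus strand, with 2 to 3 exons depending on the transcript. The stretches just before the first base of each ligand gene are shown because the 2 genes had closely similar patterns across cell gates. They are from RefSeq on GRCm38.p6, plus strand, chr8:94810203-94810452 for Ccl17 and chr8:94745434-94745589 for Ccl22, and the Ccl22 stretch stops at the GENCODE start, 94 bases before the RefSeq start. Capitals mark matches to TTCNNNNGAA, the spacing that STAT6 prefers, and to TTCNNNGAA, the spacing of other STAT factors.
Ccl17: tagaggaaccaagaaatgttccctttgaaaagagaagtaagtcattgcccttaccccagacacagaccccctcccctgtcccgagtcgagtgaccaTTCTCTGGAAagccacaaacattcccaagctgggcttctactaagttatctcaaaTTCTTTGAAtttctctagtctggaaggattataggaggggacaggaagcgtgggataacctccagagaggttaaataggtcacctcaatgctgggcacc
Ccl22: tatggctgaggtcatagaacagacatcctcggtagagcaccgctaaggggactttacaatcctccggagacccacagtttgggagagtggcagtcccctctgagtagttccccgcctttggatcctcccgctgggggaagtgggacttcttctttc
The motifs were searched on both strands in the 250 bases before each RefSeq gene start. The Ccl17 window held 1 match to TTCNNNNGAA, its first base at -154 from the start, and 1 match to TTCNNNGAA at -99, and none to GGGNNTTNCC, a letter pattern of NF-kB sites. Of 32841 promoter windows, 5.85% held TTCNNNNGAA, 7.02% held TTCNNNGAA and 4.11% held GGGNNTTNCC. The Ccl22 and Ccr4 windows held none of the 3 motifs.

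The STK library held 11672 barcodes and 81859811 UMIs (unique molecular identifiers, 1 per captured RNA molecule), and the DMSO library 11784 barcodes and 79322966 UMIs. The filter asked for 500 UMIs or more, 250 genes or more, and a mitochondrial share of no more than 10%. It kept 10846 barcodes in the STK library and 11152 in the DMSO library, with medians of 4930.5 and 4471.5 UMIs per cell. There were 183 barcode sequences kept in both libraries. Xist, made from the inactive X chromosome of female cells, and 4 Y-linked genes gave a sex for part of the cells, and 74.0% of such cells read as female in the STK library against 18.8% in the DMSO library. Sex mix and treatment therefore cannot be told apart at the level of whole libraries, and values within female-read and within male-read cells stand beside the main results. Each sex in each library comes from an unknown number of other animals, so a value within a sex still compares different animals.

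Cells were assigned to 16 gates by marker genes that do not include the 3 members, which placed 83.5% of kept STK cells and 78.5% of kept DMSO cells. The mature dendritic cell (mature DC) gate asked for Fscn1, which encodes the actin-bundling protein fascin, plus 2 further markers such as Ccr7, the lymph node homing receptor. It held 128 STK and 135 DMSO cells. Cd83, Cd40 and Cd80, activation genes that the gate did not use, were at their highest level of all gates in this one in both libraries, while Cd86, also not used, stood at 188 STK and 177 DMSO CPM and was exceeded in other gates. The cDC2 gate held 274 STK and 225 DMSO cells. Its markers Cd209a, Clec10a, Mgl2 and Tnip3 were highest there in both libraries, while Flt3 and Btla were exceeded in other gates. Of genes that the gate did not use, H2-Ab1 and Itgax were highest there, and Irf4 and Sirpa were not. Monocyte markers summed to 2257 STK and 2444 DMSO CPM in this gate, and the part of monocyte-derived cells was not tested. The gate for type 1 conventional cells (cDC1) held 148 and 112 cells with Xcr1 or Clec9a, and the plasmacytoid (pDC) gate held 750 and 698 cells. The Treg gate, T cells with a Foxp3 UMI and none of Cd8a or Cd8b1, held 285 STK and 342 DMSO cells, and the checkpoint gene Ctla4, which the gate did not use, stood at 1237 and 1413 CPM there. CD4 conventional T cells, with Cd4 but no Foxp3 UMI, numbered 391 STK and 392 DMSO cells. They were shallower than Treg-gated cells, at medians of 3101 and 3025 UMIs against 4458 and 4311.5. A Treg whose Foxp3 RNA was not captured would fall in this gate, and the part of such cells was not tested. CPM (counts per 1000000) is the gene's UMIs scaled to all UMIs of the gate's cells, and since a UMI counts a molecule whatever its length, levels of different genes are set side by side without a length term.

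Each ligand had its highest level in the mature DC gate and its next highest in the cDC2 gate, in both libraries, with intervals that did not overlap between the 2 gates. Ccl22 stood at 1232 CPM (1167 to 1299) in STK mature DC and 876 CPM (820 to 934) in DMSO mature DC, against 63.7 CPM (54.4 to 74.0) and 44.3 CPM (35.3 to 55.0) in cDC2. Mature DC were 1.18% of kept cells in the STK library and 1.21% in the DMSO library, yet held 67.4% and 71.1% of all Ccl22 UMIs. Ccl17 was spread more evenly, at 461 CPM (422 to 503) and 199 CPM (173 to 228) in mature DC against 178 CPM (162 to 195) and 109 CPM (94.6 to 125) in cDC2. The mature DC gate held 33.4% of STK and 25.2% of DMSO Ccl17 UMIs, the cDC2 gate 30.8% and 24.5%, and cells outside all gates 3.85% and 42.4%. In cDC1 both ligands were low, Ccl17 at 11.9 CPM in STK and 11.6 CPM in DMSO cells and Ccl22 at 20.9 and 21.7 CPM. No UMI of either ligand was found in the 526 STK and 818 DMSO cells of the hepatocyte or tumour gate, the deepest gate at medians of 26174 and 25539.5 UMIs, and a floor of 3 cells out of each total allows a share of cells with a UMI of up to 0.570% and 0.367%.

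**Figure D1:**
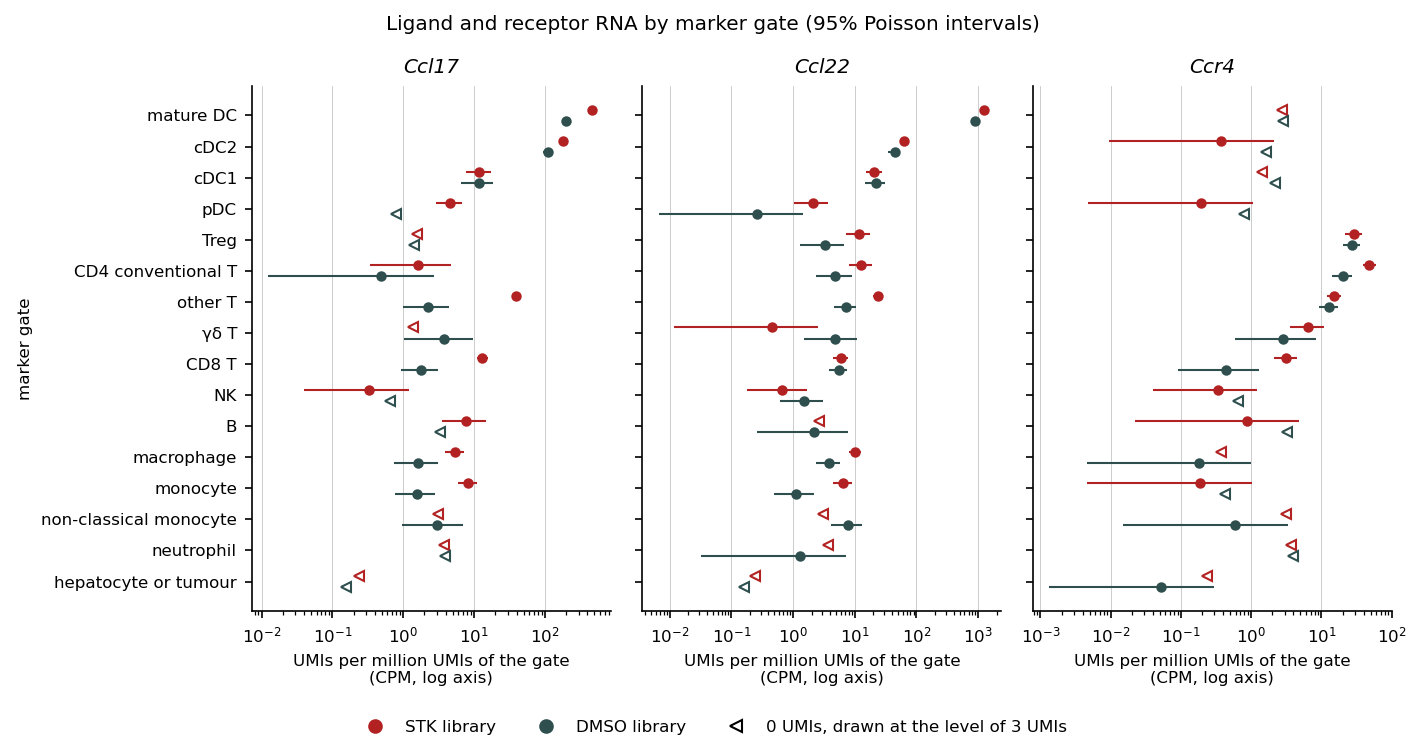
Levels of Ccl17, Ccl22 and Ccr4 in CPM on a log axis by marker gate, STK points above DMSO points with 95% counting intervals, 1 library each; open triangles mark gates with 0 UMIs, drawn at the level of 3 UMIs. The ligands stand highest in mature DC and then in cDC2, and Ccr4 stands in T cell gates, highest in CD4 conventional T cells of the STK library (48.1 CPM).

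Ccl17 was higher in STK than in DMSO dendritic cells in 2 of the 3 conventional gates. In mature DC there were 512 UMIs in the STK library against 208 in the DMSO library, a ratio of CPM of 2.32 (1.97 to 2.74). In cDC2 there were 473 against 202 UMIs, a ratio of 1.63 (1.38 to 1.93), and in cDC1 25 against 16 UMIs, a ratio of 1.02 (0.526 to 2.05). A gene was called where its ratio reached 1.5-fold with at least 30 UMIs over both libraries. Ccl17 was called higher in mature DC, where 7.63% of 6183 genes were called higher and 12.5% lower, and in cDC2, where 6.29% of 8352 genes were called higher and 11.9% lower. It was not called in cDC1, where 7.87% of 7726 genes were called higher and 8.3% lower. Over the 3 gates together Ccl17 was at 172 CPM in STK and 99.6 CPM in DMSO cells, a ratio of 1.73 (1.54 to 1.94). That ratio leaves out cells outside all gates, which held 3.85% of STK and 42.4% of DMSO Ccl17 UMIs.

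More mature DC had a Ccl17 UMI in the STK library, 36.7% (28.4 to 45.7) against 25.9% (18.8 to 34.2) in the DMSO library, intervals that overlap. Median depth was 7452 and 6166 UMIs per cell, and after thinning each cell to 1000 UMIs the shares were 16.4% (10.5 to 24.0) and 9.77% (5.31 to 16.1). In cDC2 the unthinned shares were 22.6% (17.8 to 28.0) in STK and 10.2% (6.59 to 14.9) in DMSO cells, which do not overlap. Median depth in cDC2 was 8904.5 and 7461 UMIs, and the thinned shares were 8.03% (5.10 to 11.9) and 4.44% (2.15 to 8.02). The thinned intervals overlap in both gates. So the direction was the same in level and in detection in both gates. Leaving out the single cell with the most Ccl17 in each library gave 2.47 in mature DC and 1.82 in cDC2, and leaving out the highest 5% of cells gave 3.91 and 5.93. The cDC2 ratio was 3.81 with stricter gates and 1.499, under the call, without the cells of highest doublet score.

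The Ccl17 ratio in mature DC depended on the Fscn1 requirement. Among cells with at least 3 mature DC markers but no Fscn1 UMI, the 27 STK cells held 41 Ccl17 UMIs and the 23 DMSO cells held 178, of which 146 were in 1 cell. With these cells included the gate held 155 STK and 158 DMSO cells at 403 and 312 CPM, and the ratio was 1.29 (1.13 to 1.47). Within cells read as male the ratio was 2.87 (2.24 to 3.67), from 27 STK and 82 DMSO cells at 552 and 192 CPM. Within cells read as female it was 1.61 (0.751 to 4.11), from 51 STK and only 3 DMSO cells at 218 and 135 CPM. In cDC2 the male-read ratio was 1.96 (1.56 to 2.46), and in female-read cells the 137 STK cells held 124 Ccl17 UMIs and the 14 DMSO cells none, at least 3.62-fold higher against a floor of 3 UMIs. Hepatocyte, monocyte and macrophage RNA was lower in STK mature DC. The 8 hepatocyte markers summed to 1177 CPM in STK and 2007 CPM in DMSO cells with none at 0. Monocyte markers summed to 317 and 517 CPM and macrophage markers to 27.0 and 58.3 CPM, while NK markers summed to 23.4 and 17.2 CPM. Cd8a and Cd8b1 summed to 33.3 and 75.5 CPM in mature DC and to 37.5 and 24.6 CPM in cDC1. The T cell genes Cd3d, Cd3e and Cd3g summed to 3.60 and 2.87 CPM in mature DC. Which cells the CD8 RNA came from was not tested. With the cells richest in hepatocyte RNA left out the Ccl17 ratio was 2.17, and the part of the other lineages was not tested.

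Ccl22 was higher in STK mature DC and cDC2, by pooled ratios under the call. In mature DC there were 1367 STK against 916 DMSO UMIs, a ratio of 1.41 (1.29 to 1.53), in cDC2 169 against 82, a ratio of 1.44 (1.10 to 1.89), and in cDC1 44 against 30, a ratio of 0.961 (0.591 to 1.58). None of the 3 ratios reached 1.5-fold, but that in cDC2 did under 7 of 15 alternatives. It was 3.12 (2.04 to 4.97) with stricter gates. In thinned cells it was 2.05 (0.866 to 5.39), from 20 STK and 8 DMSO UMIs, an interval that includes 1. Without the highest 5% of cells it was 5.07 (2.29 to 13.3), from 51 and 7 UMIs. A Ccl22 UMI was found in 77.3% (69.1 to 84.3) of STK and 67.4% (58.8 to 75.2) of DMSO mature DC, and after thinning in 44.5% and 39.1%. In cDC2 the shares were 17.5% (13.2 to 22.5) and 8.00% (4.81 to 12.3). After thinning they were 5.47% (3.10 to 8.87) and 2.67% (0.985 to 5.71), intervals that overlap.

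In mature DC the Ccl22 ratio went in opposite directions in the 2 sexes. Male-read mature DC stood at 733 CPM in the STK library (27 cells) and 915 CPM in the DMSO library (82 cells), a ratio of 0.801 (0.674 to 0.948). Female-read mature DC stood at 1268 CPM (51 cells) and 677 CPM (3 cells), a ratio of 1.87 (1.33 to 2.72). The pooled ratio above 1 was therefore not seen in the sex with more than 3 cells in each library. In cDC2 the male-read ratio was 1.03 (0.708 to 1.49) and the female-read ratio 6.58 (1.15 to 263), the second resting on 1 DMSO UMI. Pooled values also include cells that gave no sex. Without the Fscn1 requirement the pooled Ccl22 ratio in mature DC was 1.27.

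Within a gate a few cells carried much of the ligand RNA. In STK mature DC, 6 of 128 cells held 50% of the Ccl17 UMIs, and in DMSO mature DC 4 of 135 cells did. The highest cell had 109 Ccl17 UMIs in the STK library and 54 in the DMSO library, while cells with any Ccl17 had medians of 4 and 2. Cells with at least 20 Ccl17 UMIs numbered 9 STK and 3 DMSO. Ccl22 was less concentrated: 11 cells held 50% of its UMIs in each library, the highest cell had 154 in the STK and 88 in the DMSO library, and 22 STK and 12 DMSO cells had at least 20. In cDC2, 9 STK and 3 DMSO cells held 50% of Ccl17.

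The 2 ligands were found in the same mature DC. Of cells with a Ccl17 UMI, 95.7% in the STK and 91.4% in the DMSO library also had Ccl22, against 66.7% and 59.0% of cells without Ccl17. Cells with Ccl17 were deeper, at medians of 8392 and 8455 UMIs against 6735 and 6125 without it, and the Ccl22 level scaled to depth was 2407 against 446 CPM in the STK library and 2335 against 331 CPM in the DMSO library. Ccl17 without Ccl22 was rare, 2 STK and 3 DMSO cells, whereas Ccl22 without Ccl17 was seen in 54 STK and 59 DMSO cells. Per Ccl17 UMI there were 2.67 Ccl22 UMIs in STK and 4.40 in DMSO mature DC. In cDC2 the balance was turned over, with 0.357 and 0.406 Ccl22 UMIs per Ccl17 UMI, and 38 STK and 15 DMSO cells had Ccl17 alone against 24 and 10 with Ccl22 alone.

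**Figure D2:**
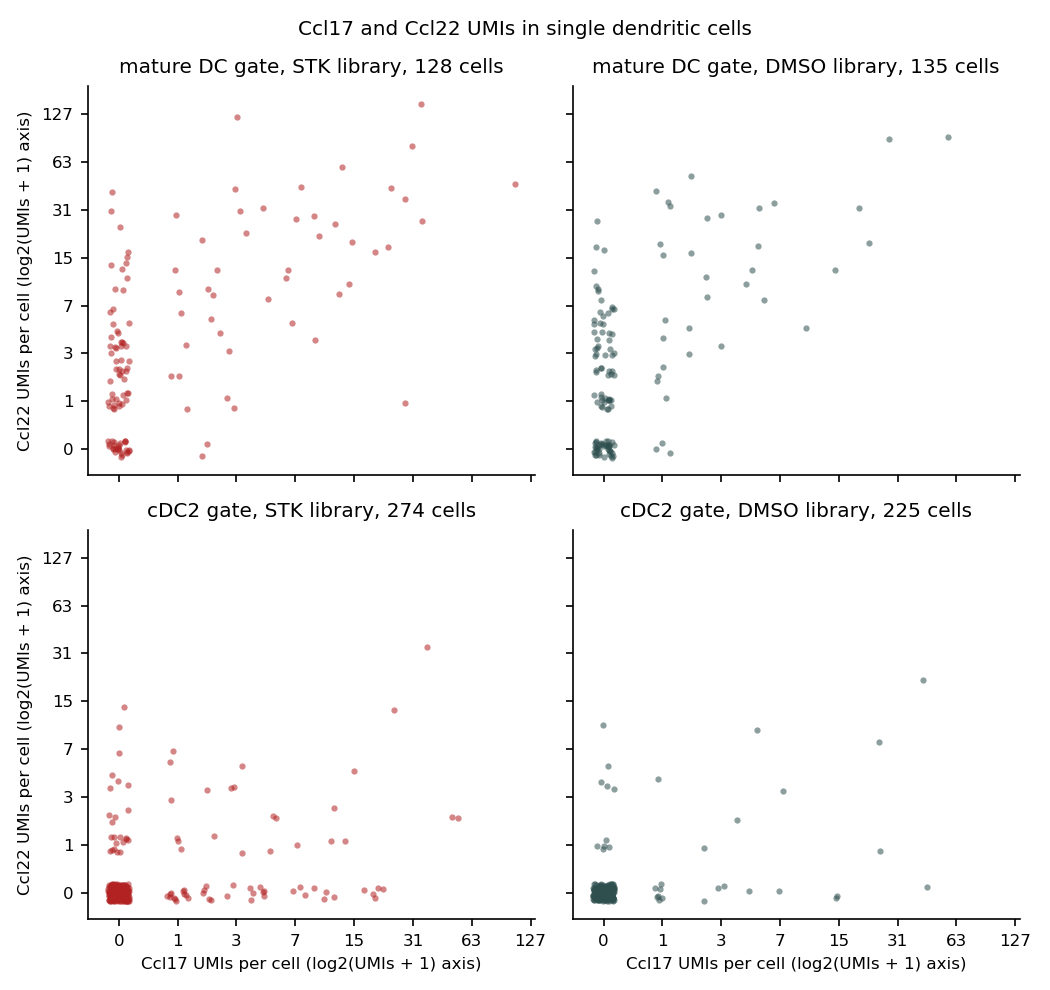
Ccl17 against Ccl22 UMIs in single mature DC and cDC2 cells, STK panels left of DMSO panels; each point is 1 cell and points are jittered for display. Mature DC lie towards Ccl22 and cDC2 towards Ccl17, and the cell with the most Ccl17 in the STK mature DC gate had 109 UMIs.

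Both ligands were set against the number of mature DC markers with a UMI in cells of the cDC1, cDC2 and mature DC gates together. Ccl22 was higher at every step: 19.7 CPM with no marker, 48.3 with 1, 95.4 with 2, 399 with 3 and 1237 with 4 or more in the STK library, and 8.30, 95.4, 147, 298 and 931 CPM in the DMSO library. The DMSO intervals for 1 and 2 markers overlap (68.1 to 130 and 101 to 206). Ccl17 in the STK library was at 51.9, 170, 330, 362 and 454 CPM over the same bins, with overlapping intervals for 2 and 3 markers and for 3 and 4 or more. In the DMSO library it was at 62.8, 16.7, 200, 48.5 and 217 CPM, with no steady order, and 41 of the 45 UMIs of the bin with 2 markers came from 1 cell. The bins with 3 markers held only 10 STK and 12 DMSO cells. Those with 4 or more held 127 and 128 cells, most of them of the mature DC gate, so that step largely repeats the gate comparison. Cells with 1 marker were more numerous in the STK library, 111 against 42. Their Ccl17 level was 170 CPM (148 to 195) against 16.7 CPM (6.71 to 34.4), the widest gap of the 5 bins as a ratio but not in CPM.

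**Figure D3:**
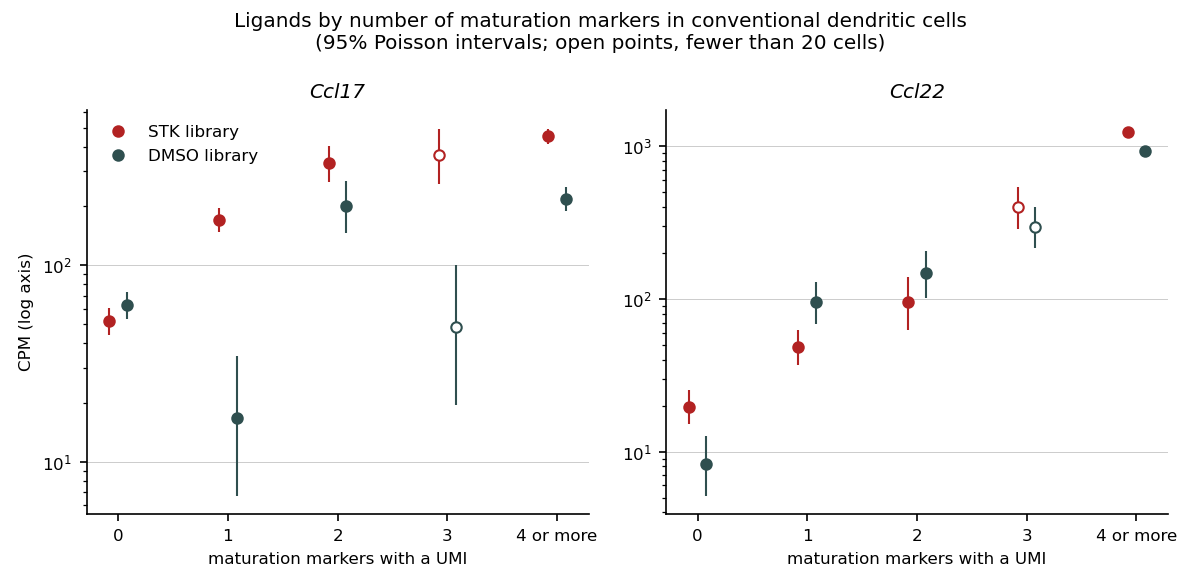
Ccl17 and Ccl22 levels in CPM by the number of mature DC markers detected per cell (0 to 4 or more), STK points left of DMSO points with 95% counting intervals, on a log axis; open points are bins of fewer than 20 cells. By point values Ccl22 is higher at each step in both libraries and Ccl17 only in the STK library, with some neighbouring intervals overlapping for each ligand.

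Some ligand RNA lay outside the dendritic gates. The 5 T cell gates held 575 ligand UMIs (Ccl17 plus Ccl22) in the STK and 109 in the DMSO library. Of these, 525 and 83 were in 16 STK and 7 DMSO cells with at least 5 ligand UMIs, and all 16 and all 7 also had at least 3 dendritic markers. Their median depths were 13227 and 12720 UMIs, against 3726 and 3791.5 for T-gated cells in all. In the STK other T gate, which ranked just after cDC2 for Ccl17 at 39.2 CPM, 9 such cells held 94.5% of the ligand UMIs, and the Treg gate held no Ccl17 UMI in either library. Whether these barcodes held 2 cells was not tested, though 8 of the 16 and 3 of the 7 were among the highest 8% of doublet scores. Outside all gates there were 59 STK and 350 DMSO Ccl17 UMIs, 3.85% and 42.4% of each library's Ccl17 UMIs. Of the 350, 146 and 115 were in 2 cells. Ccl17 there was at 4.68 STK and 23.6 DMSO CPM, a ratio of 0.198 (0.148 to 0.262). Of 7 STK and 11 DMSO ungated cells with at least 5 ligand UMIs, 3 and 9 had at least 3 dendritic markers. The 7 and 11 cells held 92 of 143 and 454 of 474 ungated ligand UMIs. Whether they were dendritic cells that the gates missed was not tested.

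Other genes of the dendritic gates gave the setting of the ligand values, first those that act with or on the ligands. Of 10 genes around CCR4, 3 reached 30 UMIs in mature DC: the 2 ligands and Dpp4, a surface peptidase that trims CCL22 in humans, at 110 STK and 102 DMSO CPM, a ratio of 1.07 (0.822 to 1.41). Ackr2, a scavenger receptor that binds both ligands, had no UMI in mature DC of either library.

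Granulocyte-macrophage colony-stimulating factor and interleukin 4, cytokines known to induce Ccl17 in dendritic cells, act through receptors and STAT factors listed as 16 genes. All 16 were measured in mature DC and none was called in either direction, with a median log2 ratio of 0.08, against 7.63% of genes called higher, 12.5% lower and a median of -0.06 over all genes of the gate. The furthest from equal were Irf4, a transcription factor of cDC2, at 21.6 STK and 28.7 DMSO CPM (ratio 0.754, 0.422 to 1.33), Il13ra1 (0.766) and Stat5a (1.29). In cDC2, with a median of -0.05, 1 of 16 was called higher and none lower, where 6.29% of all genes were higher and 11.9% lower. It was Il4ra, a subunit of the interleukin 4 receptor, at 81.0 STK and 50.3 DMSO CPM (1.61, 1.26 to 2.08). Csf2rb, the signalling subunit of the colony-stimulating factor receptor, was at 1.45 (1.24 to 1.70) and Stat5b at 0.672.

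Of 33 maturation genes outside the gate markers, 28 were measured in mature DC, with 3 called higher, none lower and a median log2 ratio of 0.10. That count is near the background of 7.63% of all genes called higher, with 12.5% lower. Il12b, encoding the shared subunit of interleukins 12 and 23, was at 1173 STK and 607 DMSO CPM (1.93, 1.76 to 2.13), Cd40 at 457 and 291 CPM (1.57, 1.36 to 1.82), and Aldh1a2, a retinoic acid synthesis enzyme, at 61.3 and 40.1 CPM (1.53, 1.02 to 2.30). In cDC2, 9 of 24 measured members were called higher and none lower, against 6.29% and 11.9% of all genes, with a median log2 ratio of 0.49 against -0.05 over all genes. The furthest were Il12b, with 45 STK and 0 DMSO UMIs (at least 10.5-fold higher), the costimulator Cd80 (2.18, 1.66 to 2.90) and the signalling adaptor Traf1 (1.73, 1.55 to 1.94). In cDC1, where both ligand ratios were near 1, 10 of 24 were called higher and 1 lower, against 7.87% and 8.3% of all genes, with a median log2 ratio of 0.39 against -0.01. Furthest were Il12b at 126 STK and 10.1 DMSO CPM (12.5, 7.29 to 23.1), the chemokine Ccl5 at 192 and 37.0 CPM (5.18, 3.86 to 7.08) and the checkpoint ligand Cd274 at 34.7 and 8.70 CPM (3.99, 2.15 to 8.07).

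Of 25 chemokine genes, 12 were measured in mature DC, 4 called higher and 2 lower, against 7.63% and 12.5% of all genes, with a median log2 ratio of 0.15. Cxcl10, the interferon-induced ligand of CXCR3, was furthest, at 519 STK and 68.8 DMSO CPM (7.54, 5.89 to 9.77), followed by Ccl3, an inflammatory chemokine, at 9.01 and 51.6 CPM (0.175, 0.079 to 0.346), and Cxcl1, which draws in neutrophils, at 98.2 and 21.0 CPM (4.67, 2.93 to 7.76). Ccl17 was thus 1 of 4 chemokines called higher in mature DC. In cDC2, where the median was -0.09, 5 of 14 were called higher, Ccl17 among them, and 5 lower, against 6.29% and 11.9% of all genes, with the lowest ratio for Ccl3 at 53.5 STK and 224 DMSO CPM (0.239, 0.196 to 0.290). In cDC1, where the median was 0.60, 7 of 13 were called higher, neither ligand among them, and 1 lower, against 7.87% and 8.3% of all genes, with Ccl5 furthest.

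Mature DC with and without Ccl17 were then compared within each library, 47 against 81 STK cells and 35 against 100 DMSO cells. Genes ranked in this and later splits leave out gate markers, mitochondrial, ribosomal and sex-linked genes, immunoglobulins, receptor segments and gene models. Apart from Ccl22, at 5.39-fold in the STK and 7.06-fold in the DMSO library, the genes with the largest excess shared by both libraries were Gzma, Cxcl1 (14.8 and 17.0), Tnf (3.93 and 18.0), Vdr, the vitamin D receptor (6.36 and 3.91), Aldh1a2 (2.74 and 4.82), the transcription factor Ehf (2.66 and 4.02) and Nfkbid, an atypical NF-kB inhibitor (2.65 and 2.60). Gzma is a lymphocyte protease, and 1 cell held 75.5% of its STK and 93.8% of its DMSO UMIs, so its value is that of single cells. The cytokine gene Tnf likewise had 71.8% of its DMSO UMIs in 1 cell. Of 28 maturation genes with enough UMIs, 5 were at least 1.5-fold higher in both libraries and none lower, against 1.74% of 4833 genes higher and 4.84% lower: Cd40, Pdcd1lg2 (encoding PD-L2), Ebi3 (an interleukin 27 subunit), Nfkb1 and Aldh1a2.

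Splitting mature DC at the median Ccl22 level of their library gave 9 maturation genes of 28 higher and none lower, against 3.25% of genes higher and 17.6% lower. They were Cd40 (2.84-fold in the STK and 2.41-fold in the DMSO library), Pdcd1lg2 (1.74 and 2.89), Cd274 (1.70 and 1.76), Tnfsf9, Il12b, Ebi3, the NF-kB feedback inhibitors Tnfaip3 and Nfkbia, and Aldh1a2 (3.77 and 7.07). Among the genes ranked, which leave out the gate markers, the furthest were Gzma, Cxcl1 (14.6 and 24.8), Ccl17 (7.71 and 33.9), Aldh1a2, Rasa2, Il12rb2, Mir155hg (3.40 and 4.50), the host gene of miR-155, and Npr1. Those splits use measured ligand UMIs and describe the cells, with no test. The lowest genes of the 2 splits, such as Peg10 and Igf2 for Ccl17 and Spc24 and Col4a1 for Ccl22, had most of their UMIs in few cells.

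Ccr4 was found in T cells, whose 5 gates held 90.6% of its UMIs in the STK and 88.2% in the DMSO library, 270 and 150 UMIs. It was sparse, at a median of 1 UMI in the cells where it was seen. The dendritic, macrophage, monocyte, neutrophil and hepatocyte or tumour gates each held 0 or 1 Ccr4 UMI per library. In the STK library CD4 conventional T cells had the highest level, 48.1 CPM (38.5 to 59.2), above Treg at 28.9 CPM (21.7 to 37.6) and other T cells, those that no other T cell gate took, at 15.2 CPM (12.1 to 18.9), and neighbours in this order had intervals that did not overlap. In the DMSO library Treg stood at 27.1 CPM (20.6 to 35.1), CD4 conventional T cells at 20.0 CPM (14.4 to 27.1) and other T cells at 12.8 CPM (9.32 to 17.1), and neighbouring intervals overlapped. Gamma-delta T cells were at 6.45 and 2.83 CPM, and CD8 T cells at 3.12 and 0.445 CPM.

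In Treg pooled over sex, Ccr4 gave nearly the same level under both treatments, which was not seen in male-read Treg. There were 55 STK and 58 DMSO UMIs, a ratio of 1.06 (0.722 to 1.56). That interval covers counting error alone and sets no bound on a difference between treatments. A Ccr4 UMI was seen in 13.7% (9.92 to 18.2) of STK and 12.0% (8.74 to 15.9) of DMSO Treg, and after thinning to 1000 UMIs in 4.56% and 4.12%. It was not called in this gate, where 6.38% of 8996 genes were called higher and 7.57% lower. Within male-read Treg the ratio was 2.30 (1.21 to 4.31), at 42.1 CPM in 68 STK cells and 18.3 CPM in 170 DMSO cells. Within female-read Treg it was 1.10 (0.172 to 46.3), from 102 STK and 17 DMSO cells with 16 UMIs and 1 UMI. The pooled values also include Treg that gave no sex.

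In CD4 conventional T cells Ccr4 was higher in the STK library, with 88 UMIs against 41, a ratio of 2.40 (1.64 to 3.57). It was called higher in a gate where 8.16% of 8896 genes were called higher and 9.09% lower. A Ccr4 UMI was seen in 14.3% (11.0 to 18.2) of STK and 7.91% (5.44 to 11.0) of DMSO cells. After thinning it was seen in 4.90% (2.97 to 7.54) and 2.04% (0.885 to 3.98), intervals that overlap. The ratio was above 1 in both sexes, 3.79 (1.87 to 7.82) in male-read cells and 2.29 (0.713 to 11.7) in female-read cells, the second resting on 3 DMSO UMIs. Hepatocyte markers summed to 1263 CPM in STK and 1998 CPM in DMSO cells of this gate, macrophage markers to 38.8 and 19.0, monocyte markers to 861 and 639 and NK markers to 55.7 and 32.7 CPM. The part of these lineages, and of Treg without a Foxp3 UMI, was not tested. With mitochondrial, ribosomal and hepatocyte genes left out of the total the ratio was 2.38. In other T cells the ratio was 1.19 (0.818 to 1.75), in gamma-delta T cells 2.28 (0.637 to 12.4) from 14 and 3 UMIs, and in CD8 T cells 7.01 (2.18 to 35.9) from 30 and 3 UMIs. Whether the CD4 conventional ratio differs from that of Treg was not tested. Their intervals do not overlap over all cells of the 2 gates. Within a sex they overlap, in male-read cells at 1.87 to 7.82 and 1.21 to 4.31 and in female-read cells at 0.713 to 11.7 and 0.172 to 46.3.

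**Figure D4:**
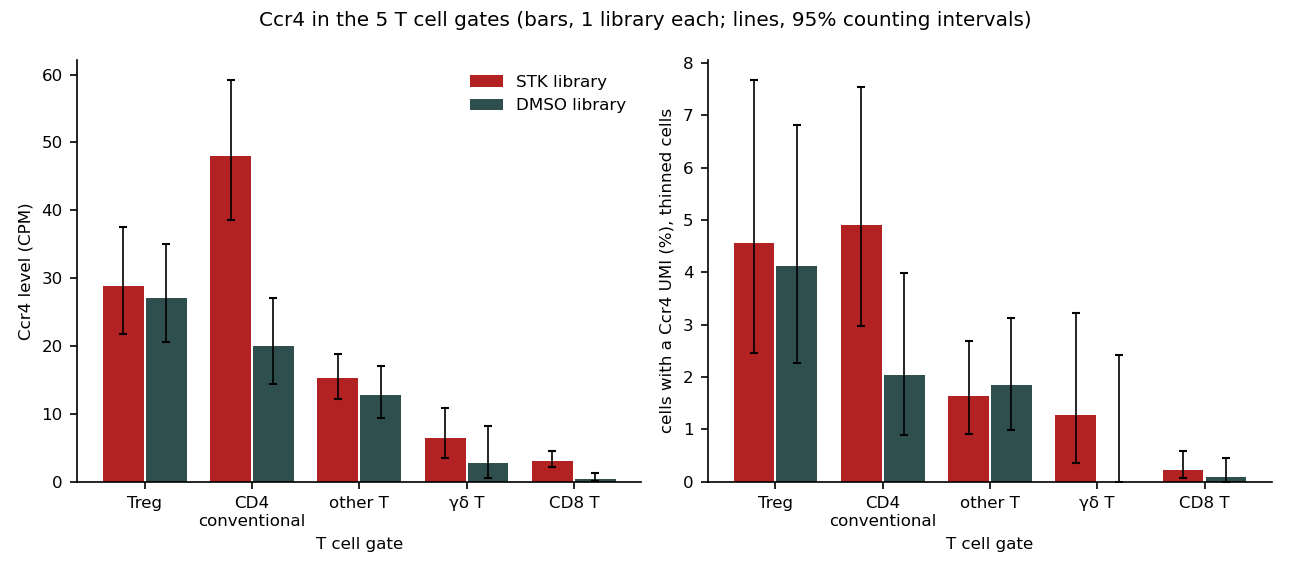
Ccr4 in the 5 T cell gates, STK bars left of DMSO bars with 95% counting intervals: level in CPM on the left, and share of cells with a Ccr4 UMI after thinning each cell to 1000 UMIs on the right. Treg bars, pooled over sex, are alike in the 2 libraries (28.9 and 27.1 CPM), and the CD4 conventional bars are apart (48.1 and 20.0 CPM). Male-read Treg, not drawn, were at 42.1 STK and 18.3 DMSO CPM.

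Other trafficking genes of the T cell gates were read beside Ccr4. Of 20 chemokine and lipid receptor genes, 16 were measured in Treg, with 6 called higher and 1 lower, against 6.38% and 7.57% of all genes, and a median log2 ratio of 0.31 against -0.04. Ccr7 was at 256 STK and 96.9 DMSO CPM (2.64, 2.24 to 3.12), Cxcr4, the receptor of CXCL12, at 139 and 68.8 CPM (2.02, 1.65 to 2.49), and Ccr1 at 6.82 and 13.1 CPM (0.521, 0.248 to 1.04). In CD4 conventional T cells, 3 of 15 were called higher, Ccr4 itself, Ccr7 (2.55, 2.08 to 3.14) and Cxcr4 (2.14, 1.73 to 2.65), and 2 lower, against 8.16% and 9.09% of all genes, with a median of 0.33 against -0.05. Ccr7 and Cxcr4 were thus called in both gates and Ccr4 in 1 of them.

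A list of 29 genes known to accompany CCR4 in Treg or type 2 helper cells gave 6 higher and 2 lower of 24 measured in Treg, against 6.38% and 7.57% of all genes, with a median log2 ratio of 0.16. Areg, the growth factor amphiregulin, was at 735 STK and 348 DMSO CPM (2.11, 1.93 to 2.31), Il1rl1, the interleukin 33 receptor, at 33.6 and 15.0 CPM (2.24, 1.45 to 3.54), and the suppressive cytokine Il10 at 18.9 and 44.5 CPM (0.425, 0.281 to 0.630). In CD4 conventional T cells 6 of 22 were higher and none lower, against 8.16% and 9.09% of all genes, with a median of 0.33 and with Areg (1.99), Tnfrsf9 (1.93), a costimulatory receptor, and Il2ra (1.90), the interleukin 2 receptor subunit, furthest.

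The same list was read in Treg with a Ccr4 UMI against those without. Among 39 against 246 STK cells and 41 against 301 DMSO cells, none of 23 measured genes was at least 1.5-fold higher or lower in both libraries, where 1.67% of 7829 genes were higher and 6.11% lower, so the count is near the background. Ccr8, the receptor of CCL1, was at 0.63-fold and 0.68-fold. The furthest higher genes were Cutc (4.42 and 2.78), the cell division genes Hist1h2af, Brca2, Hist1h2ap, Knstrn (2.40 and 2.16) and Hmmr (2.78 and 2.10), the repair gene Apex2, and S1pr1 (2.94 and 2.07), which lets T cells leave tissue. The lowest were 4 class II antigen presentation genes, H2-Aa at 0.08-fold and 0.04-fold, H2-Ab1, H2-Eb1 and H2-DMb1, and Etv3. With Treg that had at least 5 class II UMIs left out, the Ccr4 ratio of STK over DMSO was 1.13.

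Among CD4 conventional T cells, those with a Ccr4 UMI were 56 of 391 STK and 31 of 392 DMSO cells. Of 20 listed genes with enough UMIs, 2 were at least 1.5-fold higher in both libraries and 3 lower, where 2.45% of 7671 genes were higher and 4.56% lower. Gata3, the type 2 helper and Treg transcription factor, was at 1.83-fold and 1.92-fold, and Nt5e, encoding the ectoenzyme CD73, at 1.85-fold and 2.95-fold. Tigit (0.60 and 0.40), the integrin Itgae (0.18 and 0.53) and the ectoenzyme Entpd1 (0.59 and 0.64) were lower.

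Likeness was read over the 16 gates in both libraries, 32 points that share their libraries. Gate markers were not among the genes that could be named, so whether any of them was closer is not shown. Apart from them, the pattern of Ccl17 was closest to that of Ccl22, with a Pearson r of 0.91 on log2(CPM + 10) among 14288 genes. Next came the gene model Gm15156 (0.91), the sulfotransferase Chst7 (0.89), Adam23, Tmtc2 and Cx3cl1 (all 0.88), the gene that lies between the 2 ligands. Cx3cl1 was also among the 6 closest to Ccl22 (0.95), after Gm46212 (0.96), Tmtc2 (0.96), Chst7, Adgrg6 and Strip2 (all 0.95). The closest to Ccr4 were Penk, encoding an opioid peptide precursor (0.97), Ccr8 (0.95), A630023P12Rik and Igsf9b (both 0.94), Izumo1r, a folate receptor family gene of Treg (0.94), and Igflr1 (0.93). In Treg, Penk was at 221 STK and 232 DMSO CPM and Ccr8 at 321 and 414 CPM, both above Ccr4. In CD4 conventional T cells, Penk was at 305 STK and 196 DMSO CPM and Ccr8 at 144 and 115 CPM.

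The shares of ligand-making and receptor-bearing cells were compared as well. Of kept cells, cDC2 were 2.53% (2.24 to 2.84) in the STK and 2.02% (1.76 to 2.30) in the DMSO library, a ratio of 1.25, cDC1 1.36% and 1.00%, a ratio of 1.36, and mature DC 1.18% and 1.21%. Treg were 7.71% (6.87 to 8.62) of T-gated cells in the STK and 11.9% (10.8 to 13.2) in the DMSO library, but 2.63% and 3.07% of all kept cells, while T-gated cells numbered 3697 and 2864. Within a sex the STK over DMSO ratio of the Treg share of kept cells was 1.33 (0.801 to 2.22) in female-read cells, with 17 DMSO Treg. In male-read cells it was 1.10 (0.832 to 1.44), and both intervals include 1.

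**Figure D5:**
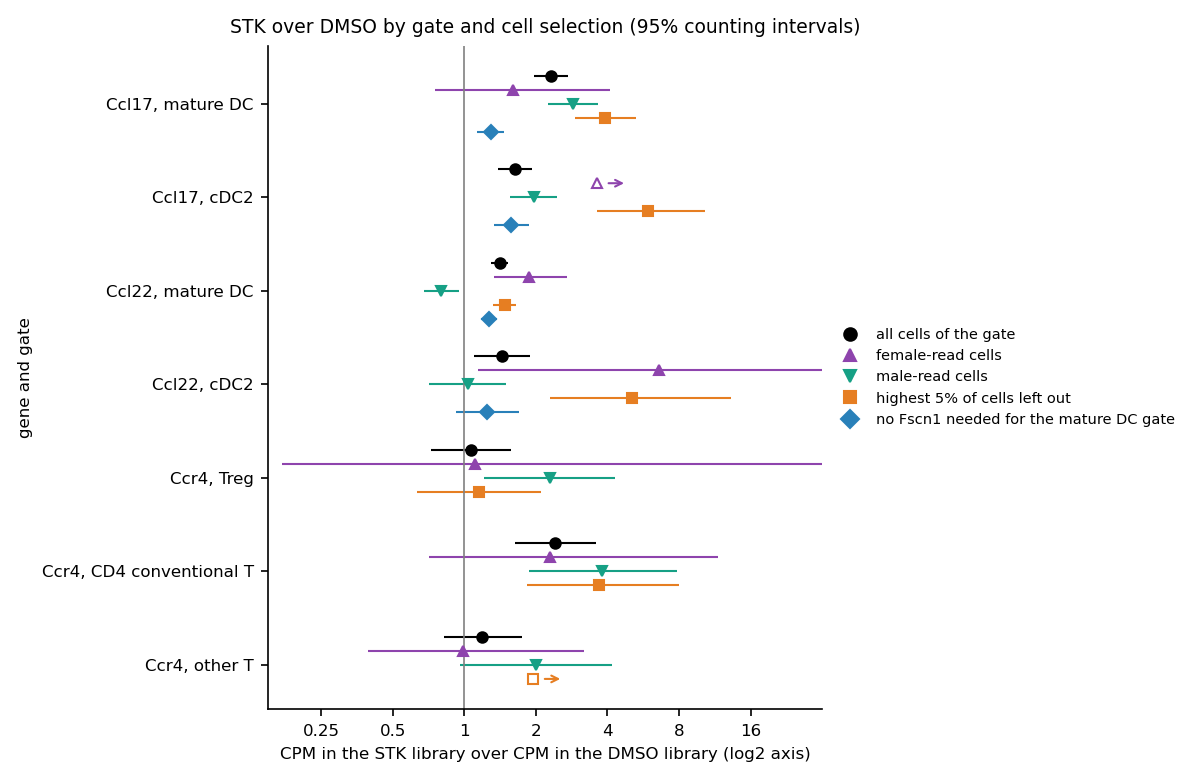
Ratio of CPM in the STK library over the DMSO library for each gene and gate on a log2 axis, with 95% counting intervals, for all cells and for other selections of cells; open symbols with arrows are lower bounds and some female-read intervals run past the right edge. Ccl17 in mature DC lies between 1.29 and 3.91 in the selections drawn, Ccl22 in mature DC crosses 1 in male-read cells (0.801), and the ratios of Ccr4 in CD4 conventional T cells all lie above 2.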

How the data were processed

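Raw UMI counts per gene and barcode were deposited by the authors as sparse matrices, written by Cell Ranger 6.0.2 per the file headers, with reads placed on GRCm38 (mm10) per the submitters' processing notes. The library chemistry was 10x Genomics 5′ sequencing of sorted CD45+ DAPI-negative cells, per the labels' protocols. The member genes, gates and lists were chosen with earlier results of these data known. Barcodes were filtered on UMIs, genes and mitochondrial share, gated on marker UMIs, and UMIs were summed per gate and library to CPM (UMIs scaled to 1000000 UMIs of the gate). CPM and their ratios have exact Poisson and exact conditional binomial 95% intervals, and shares have Clopper-Pearson intervals. A library at 0 UMIs was set to a floor of 3 UMIs, which gives a bound, 1 to 3 UMIs were used as counted with their interval, and no ratio was given where both libraries had 3 or fewer. Doublets were not removed, and Scrublet scores (scanpy 1.11.5) served as an alternative. The hepatocyte or tumour gate, at 1% of UMIs from its markers and read after the other gates, was set after values had been seen. Genes named from each list were the 3 furthest from equal with at least 30 UMIs. For likeness the 6 highest correlations were named, with gate markers left out. For split cells the 8 highest and 5 lowest genes with the same sign in both libraries were named. They were ranked by the smaller in size of the 2 libraries' log2 ratios, among genes with at least 20 UMIs in each library. Gate markers, mitochondrial, ribosomal and sex-linked genes, immunoglobulins, receptor segments and gene models were left out of that ranking. Ccl19, listed more than once in the files, counts among the members of its lists but was under the UMI minimum and has no ratio. The ratio code was run on simulated counts with known fold changes. Python 3.11.15, NumPy 2.4.6, SciPy 1.17.1, pandas 2.3.3 and matplotlib 3.10.9 were used.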

Additional observations from a re-analysis of the deposited data

Results flagged for a closer look

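In 3 results the STK over DMSO ratio and its whole counting interval lay above 1 in cells read as one sex and below 1 in cells read as the other. None of these differences was tested, and the number of animals behind each sex of each library is not known. Ccl22 in mature DC had a ratio of 1.87 in female-read cells, which include only 3 DMSO cells, and 0.801 in male-read cells. Ccl22 over the conventional dendritic gates together had a ratio of 1.88 in female-read cells (232 STK and 123 DMSO CPM) and 0.528 in male-read cells (146 and 276 CPM). Ccl17 in cDC1 had a ratio of 0.0293 (0.000595 to 0.296) in female-read cells, from 1 STK and 4 DMSO UMIs, and 29.4 (4.80 to 1211) in male-read cells, from 24 STK UMIs and 1 DMSO UMI.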

How the results depend on the processing

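No paired analysis was possible because each group has 1 library, and for the same reason no replicate could be left out. Over the alternatives run, 32 of 43 Ccl17 ratios, 31 of 42 Ccl22 ratios and 48 of 54 Ccr4 ratios stayed within the counting interval of the reported value, and the cause of the moves was not tested. Ccl17 in mature DC was 3.91 without the highest 5% of cells, 1.29 with no Fscn1 needed, 1.61 in female-read and 2.87 in male-read cells. Ccl17 in cDC2 was 3.81 with stricter gates, 2.04 without lineage exclusion, 5.93 without the highest 5%, at least 3.62 in female-read and 1.96 in male-read cells, and 1.499, just under the call, without the highest doublet scores. Ccl22 in mature DC was 1.26 in thinned cells, 1.27 with no Fscn1 needed, 1.87 in female-read and 0.801 in male-read cells, and in cDC2 it was 3.12 with stricter gates, 2.05 in thinned cells, 5.07 without the highest 5%, 6.58 in female-read and 1.03 in male-read cells. In cDC1, Ccl17 was 0.0293 in female-read and 29.4 in male-read cells, and Ccl22 was 0.431 with stricter gates and 5.21 in male-read cells. Ccr4 was 2.30 in male-read Treg, 4.84 with stricter gates, 3.68 without the highest 5% and 3.79 in male-read cells for CD4 conventional T cells, and at least 1.95 and 2.01 in other T cells without the highest 5% and in male-read cells. Female-read Ccr4 in CD8 T cells and Ccl22 in cDC1, with 0 DMSO UMIs, gave only lower bounds under 1 (0.491 and 0.899). Such bounds give no direction and were left out of the counts of alternatives. The 14 gate-cell share ratios stayed within their intervals. Shares of kept cells moved in 10 of 38: mature DC 3.78 (female-read), cDC2 1.70 (stricter), 2.17 (female-read) and 1.56 (male-read), cDC1 1.75 and 2.05, Treg 1.33 and 1.10, CD4 conventional T 0.718 and 1.43 (female-read, male-read). The counts of called genes fell with at least 100 UMIs or with 2-fold to 281 and 377 in mature DC (123 and 153 higher, 158 and 224 lower), 545 and 465 in cDC2 (262 and 188, 283 and 277), 346 and 333 in cDC1 (184 and 191, 162 and 142), 431 and 314 in Treg (204 and 143, 227 and 171), and 574 and 431 in CD4 conventional T cells (291 and 219, 283 and 212).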
